A study of Homo sapiens with 8 samples.

Results

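U87MG, an established line of human glioblastoma cells, was profiled by RNA sequencing after 48 h of enzalutamide and compared with the same line after 24 h of the drug. The comparison rested on the libraries labelled 48 h (replicates 1 and 2) against those labelled 24 h (replicates 1 and 2), which were 4 of the 8 libraries in the series. The other 4 libraries, 2 after 4 h of enzalutamide and 2 of untreated cells, stayed out of this contrast. They entered the filter on low counts, the scaling factors and the shared estimate of spread of the fit. Later passages also compare with them, and the contrast between steps uses the 4 h libraries. Enzalutamide is an antiandrogen that is used against prostate cancer. The labels give the growth medium as DMEM with serum and antibiotics, and they name neither a dose nor a vehicle, nor the time at which untreated cells were collected. The extraction protocol speaks of harvest following differentiation, which no other label mentions, so the state of the cells is not settled by the labels. Both groups compared here had received the drug, so longer exposure and longer time in culture cannot be told apart. No label states whether both libraries of a time came from separate cultures, so the spread behind the p-values is that between libraries and may be technical.

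Cells with misfolded protein in the endoplasmic reticulum (ER) switch on the unfolded protein response. Its sensors IRE1, PERK and ATF6 act through the transcription factors XBP1, ATF4 and cleaved ATF6, which raise ER chaperones, degradation factors and, through ATF4, genes of amino acid supply and the factor CHOP. Cell division is run by another set of programmes: E2F factors raise replication genes before DNA synthesis, and complexes that bind a cell cycle homology region (CHR) raise mitotic genes later.

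The 48 h libraries held 33793387 and 32348619 counts, and the 24 h libraries 37162565 and 33105625. Replicates differed by more than sampling noise (chi-square per degree of freedom of 20.5 at 48 h and 4.61 at 24 h). On the first principal component, which took 65.8% of the variance, the 48 h libraries lay at 88.0 and 79.1 and the other 6 between -37.6 and -19.5. Many markers of other cell types had few counts, and some did not. Of 12 immune markers, 10 had at most 12 counts in any library, and CD3E, CD3D, MS4A1, AIF1 and TYROBP had none, while CSF1R and CD68 had at least 6260 and 14165 counts in every library and rose between 24 h and 48 h (log2 change 0.55 and 0.57). All 7 erythroid markers had at most 5 counts. Of 9 oligodendrocyte, 8 endothelial, 9 epithelial and 10 neuron markers, 3, 5, 3 and 6 had enough counts to be tested; 0, 0, 1 and 2 of these rose and 0, 2, 1 and 2 fell. Among them were TUBB3, with 2418 to 5420 counts, CNP, with 2159 to 3687, and SNAP25, with 473 and 432 counts at 48 h and 1385 and 1298 at 24 h. CDKN2A, a gene known to be deleted in this line, had at most 1 count in any library. Of 8 astrocyte markers 5 were tested, of which 1 rose and 4 fell. The riser was GJA1, the most abundant of them, with between 9311 and 13482 counts per library (log2 change 0.62, SE 0.05). GFAP, the defining marker, fell but was scarce throughout, with no library above 22 counts. Its 48 h libraries held 4 and 2, against 20 and 15 for 24 h. SLC1A2, with at most 36 counts, also fell, as did the better measured SLC1A3 (log2 change -1.78, SE 0.12) and ALDOC (-0.90, SE 0.07). Part of the change went with gene properties. The tenth of genes with the shortest transcripts had a median log2 change of 0.30 and the tenth with the longest -0.32. The tenth with the lowest level had -0.75 and the tenth with the highest 0.33. That level is the mean log2 CPM over the 24 h and 48 h libraries themselves. Genes without counts in a library rank low by it, so the trend with level is not independent of the change. Genes detected numbered 16913 and 17009 at 48 h, against 17857 and 17758 at 24 h, and the 10 most abundant genes took 7.11% and 6.71% of counts at 48 h, against 5.51% and 5.27% at 24 h. The part of RNA quality or library composition in the results was not tested.

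**Figure D1:**
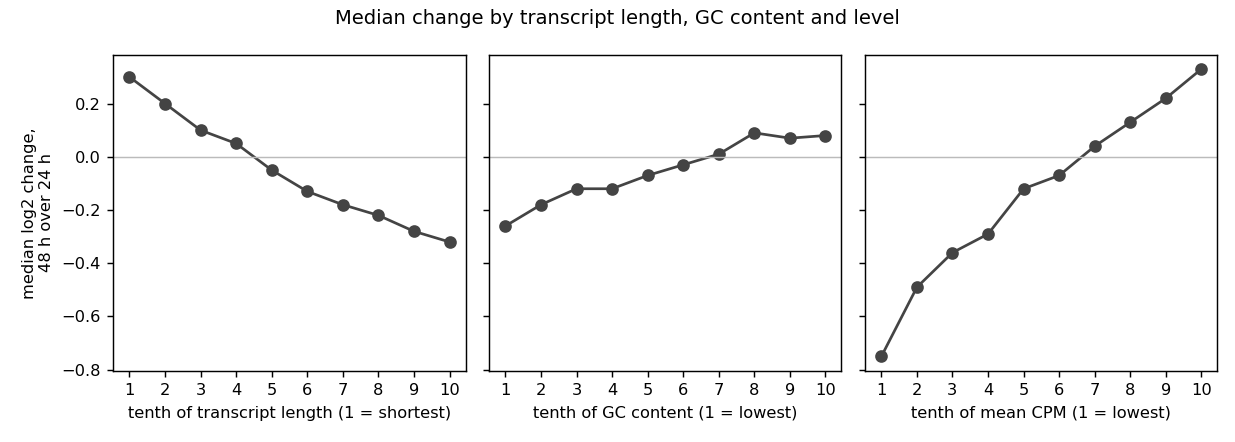
Median log2 change between 48 h and 24 h (vertical axes, 48 h over 24 h) in 10 equal groups of genes ordered by transcript length, GC content and mean level. The median falls from 0.30 to -0.32 with length and rises from -0.75 to 0.33 with level. Mean level is the mean log2 CPM over the 24 h and 48 h libraries, so its ordering is not independent of the change.

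Most measured genes differed between 48 h and 24 h. Of 14448 genes tested, 9652 were called (66.8%) by edgeR's quasi-likelihood test at a Benjamini-Hochberg adjusted p under 0.05, as for every call below. Calls were 4548 higher (31.5%) and 5104 lower (35.3%) at 48 h. The list counts below are to be read beside these shares of all tested genes. Large changes were mostly falls, with 798 rises and 2330 falls of at least 2-fold, and 108 rises and 677 falls of at least 4-fold. In 4546 of the 4548 rises and 5103 of the 5104 falls, both 48 h libraries lay on 1 side of both 24 h libraries, and over all tested genes 11892 showed such a gap. The split depended on the scaling: with library totals alone, 3088 genes were higher and 6532 lower, so that 32.1% of calls were rises, against 47.1% with TMM factors. That scaling moved the median log2 change of all genes to -0.284, against -0.068. In bulk RNA, fewer cells of a kind and less RNA per cell cannot be told apart.

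ER stress genes stood among the largest rises. HSPA5, the main ER chaperone (BiP), had 10792 and 10199 CPM (counts per 1000000 library counts, scaled by TMM factors) at 48 h, against 1255 and 1237 CPM at 24 h. The groups lay far apart, and the gene rose 8.42-fold (log2 change 3.07, SE 0.06, adjusted p = 1.27e-10). HERPUD1, a scaffold of ER-associated degradation, had 408 and 391 CPM at 48 h and 86.0 and 80.0 CPM at 24 h (log2 change 2.27, SE 0.08, adjusted p = 1.64e-09). XBP1, the factor that IRE1 activates by splicing its RNA, had 385 and 347 CPM at 48 h and 115 and 121 CPM at 24 h (log2 change 1.63, SE 0.07, adjusted p = 1.32e-08). In each of the 3 genes both 48 h libraries were above all 6 others, and HSPA5 had 1408 and 1364 CPM in untreated cells and 1498 and 1538 CPM after 4 h.

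The promoters of these 3 genes are printed because each holds a known ER stress response element. The letters are the 250 bases before the transcription start in RefSeq, on GRCh38.p14, written 5′ to 3′ on the gene's strand, with the element in capitals. The elements searched on both strands were ERSE (CCAAT and, 9 bases on, CCACG, so that it contains a CCAAT box) and ERSE-II (ATTGG and, 1 base on, CCACG). ERSE lies 66 to 48 bases before the start of HSPA5 (chr9:125241344-125241593, minus strand) and 52 to 34 bases before that of XBP1 (chr22:28800570-28800819, minus strand). ERSE-II lies 117 to 107 bases before the start of HERPUD1 (chr16:56931892-56932141, plus strand).
HSPA5: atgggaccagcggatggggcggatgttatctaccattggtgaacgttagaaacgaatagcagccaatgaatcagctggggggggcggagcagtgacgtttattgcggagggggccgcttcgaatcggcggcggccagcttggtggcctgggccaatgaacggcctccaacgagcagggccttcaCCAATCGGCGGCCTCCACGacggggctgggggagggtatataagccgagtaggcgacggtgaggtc
XBP1: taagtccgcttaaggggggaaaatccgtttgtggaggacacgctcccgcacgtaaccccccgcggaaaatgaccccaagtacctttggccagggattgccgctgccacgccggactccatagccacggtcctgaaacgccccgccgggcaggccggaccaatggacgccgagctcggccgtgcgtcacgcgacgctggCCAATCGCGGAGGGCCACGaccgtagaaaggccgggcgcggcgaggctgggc
HERPUD1: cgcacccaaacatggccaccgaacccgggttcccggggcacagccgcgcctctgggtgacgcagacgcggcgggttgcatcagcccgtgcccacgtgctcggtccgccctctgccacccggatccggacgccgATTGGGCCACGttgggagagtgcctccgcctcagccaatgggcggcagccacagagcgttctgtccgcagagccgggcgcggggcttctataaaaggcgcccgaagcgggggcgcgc
Over all 35116 promoters of the table, 26 held ERSE (0.074%) and 18 held ERSE-II (0.0513%). This total, used for every share of all promoters here, takes in genes that were not tested. Of the tested genes, 11128 had a promoter in the table (77%). Shares of the lists cover tested genes only, so the bases of the shares differ. ERSE was found in 6 of the 25 ER chaperone genes with a promoter in the table, and those were HSPA5, HSP90B1, CALR, CANX, CRELD2 and ERO1LB. HYOU1 and SDF2L1 held ERSE-II. A match describes the letters and is no evidence of binding.

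**Figure D2:**
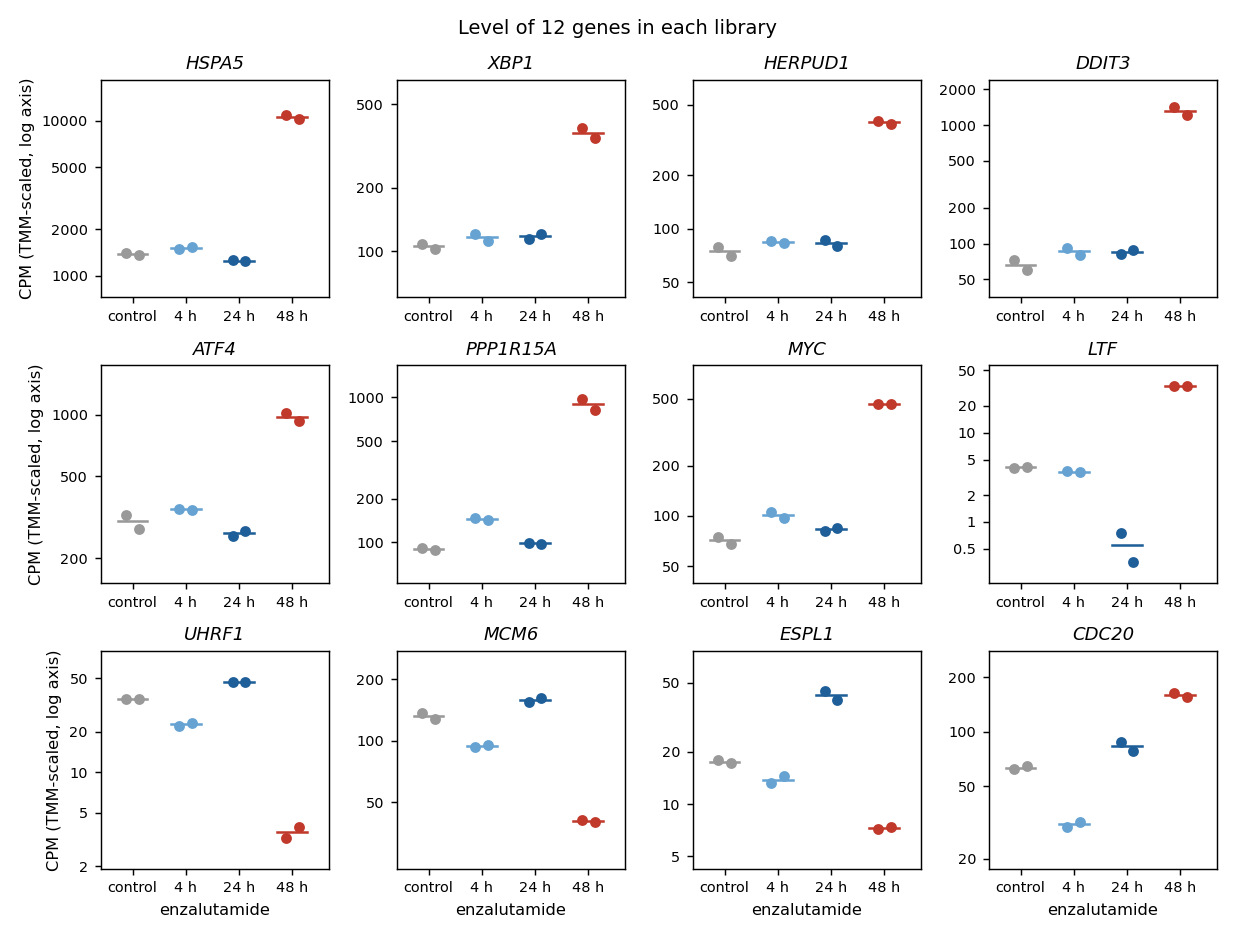
TMM-scaled CPM (log axes) of 12 genes in each library of untreated cells and of cells after 4, 24 and 48 h of enzalutamide; points are libraries and bars the mean of 2. HSPA5, XBP1, HERPUD1, DDIT3, ATF4, PPP1R15A and MYC are highest at 48 h, UHRF1 and MCM6 are lowest there, and CDC20 is above its 24 h level while ESPL1 is below it.

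Chaperones and secretory machinery rose broadly but by less than HSPA5. Of 26 ER chaperones and folding enzymes tested, 21 rose and 2 fell, with a median log2 change of 0.50 beside -0.068 over all tested genes. HSP90B1, the ER form of HSP90, had 2767 and 2747 CPM at 48 h and 1434 and 1364 CPM at 24 h (log2 change 0.98, SE 0.05). DNAJB9, a co-chaperone that restrains IRE1, rose by 1.19 (SE 0.07) and DNAJC3, a co-chaperone of BiP, by 0.86 (SE 0.07) on the log2 scale. Summed over the list, chaperone RNA came to 25190 and 23610 CPM at 48 h, against 10280 and 10030 CPM at 24 h, so that HSPA5 alone supplied most of the gain. Translocon and signal peptidase genes rose in 18 of 24 cases (median 0.36), among them SSR2 (0.84, SE 0.07) and SRP72 (0.76, SE 0.06), and 1 fell. That was SPCS3, a signal peptidase subunit, with 34.0 and 37.1 CPM at 48 h and 207 and 201 CPM at 24 h (log2 change -2.52, SE 0.07). Coat proteins of ER to Golgi traffic rose in 21 of 26 cases and fell in 1 (median 0.58), and SEC13, COPZ1 and COPB1 rose by 1.16, 1.12 and 1.09 (SE 0.07, 0.07 and 0.06).

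The sensors and the degradation arm were mixed. ERN1, which encodes IRE1, rose to 33.1 and 36.8 CPM at 48 h, against 16.7 and 16.6 CPM at 24 h (log2 change 1.07, SE 0.09). EIF2AK3, which encodes PERK, fell slightly (log2 change -0.34, SE 0.09, adjusted p = 0.00687, and 0.0712 without 24 h replicate 1), and ATF6 was not called (110 and 111 CPM at 48 h, 115 and 114 CPM at 24 h). Of 21 ER-associated degradation genes, 9 rose and 6 fell, with a median of 0.14 that became -0.07 with library totals as the only scaling. RNF139, an ER ubiquitin ligase, rose by 1.20 (SE 0.08). EDEM3, a mannosidase that marks misfolded glycoproteins, had 5.65 and 9.63 CPM at 48 h and 56.9 and 56.5 CPM at 24 h, and fell 7.43-fold (log2 change -2.89, SE 0.17). UBE2G2, a conjugating enzyme of the same route, fell by 1.38 on the log2 scale (SE 0.10).

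Regulators of the integrated stress response rose with the ER genes. DDIT3, which encodes CHOP, had 1419 and 1223 CPM at 48 h, against 82.3 and 88.8 CPM at 24 h (log2 change 3.95, SE 0.11, adjusted p = 8.16e-10). ATF3, a stress-induced factor, had 424 and 404 CPM at 48 h and 29.5 and 32.7 CPM at 24 h (log2 change 3.74, SE 0.07). PPP1R15A, which returns the translation factor eIF2-alpha to its active state, had 979 and 813 CPM at 48 h and 98.8 and 97.1 CPM at 24 h (log2 change 3.19, SE 0.09). In these genes every 48 h library was at least several times above every 24 h library. ATF4 itself rose to 1024 and 931 CPM at 48 h, against 257 and 271 CPM at 24 h (log2 change 1.89, SE 0.08). Of 19 tested regulators among ATF4 targets, 15 rose and 4 fell (median log2 change 0.95), with TRIB3 at 2.70 (SE 0.14) and the hormone gene STC2 at 2.45 (SE 0.10). CHAC1, a glutathione-degrading enzyme and a common ATF4 target, went the other way, with 3.20 and 5.84 CPM at 48 h and 13.6 and 14.5 CPM at 24 h (log2 change -1.64, SE 0.29).

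Amino acid genes of the same response did not move as 1 block. SLC3A2, the heavy chain shared by several transporters, had 1728 and 1505 CPM at 48 h and 252 and 260 CPM at 24 h (log2 change 2.66, SE 0.09). Its partner SLC7A11, the cystine transporter, fell (log2 change -0.49, SE 0.15, adjusted p = 0.0125), but the call was lost without 24 h replicate 2 (log2 change -0.29, adjusted p = 0.153), without 48 h replicate 1 (-0.31, adjusted p = 0.0652) and after correction for length and GC content (-0.23, adjusted p = 0.109). Of 18 transporters tested, 4 rose and 11 fell (median -0.43). Enzymes of serine, one-carbon and asparagine synthesis rose in 12 of 22 cases and fell in 7. PYCR1, of proline synthesis, had 224 and 196 CPM at 48 h and 70.8 and 68.2 CPM at 24 h (log2 change 1.60, SE 0.07), and ASNS, the asparagine synthetase, had 248 and 211 CPM at 48 h and 140 and 154 CPM at 24 h (log2 change 0.65, SE 0.10). Cytosolic aminoacyl-tRNA synthetases rose in 15 of 20 cases and fell in 2 (median 0.54), led by GARS (1.36, SE 0.07), YARS (1.25, SE 0.06) and AARS (1.21, SE 0.06), whereas their mitochondrial counterparts split into 7 higher and 8 lower of 17.

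Genes of protein synthesis and respiration rose together by smaller amounts. Ribosomal protein genes rose in 43 of 44 cases for the large subunit (median log2 change 0.65) and in 30 of 31 for the small subunit (median 0.61), and none fell. RPL4 had 1696 and 1489 CPM at 48 h and 978 and 940 CPM at 24 h, and RPSA 712 and 618 CPM at 48 h and 395 and 385 CPM at 24 h. These genes have many near-identical pseudogenes, so their levels depend on how shared reads were assigned. They are also short and abundant, the classes whose medians were above 0 as a whole, and after correction for length and GC content their medians were 0.43 and 0.35. Initiation factors rose in 27 of 39 cases and fell in 3 (median 0.58). EIF1, which keeps start codon choice strict, had 1467 and 1393 CPM at 48 h and 483 and 487 CPM at 24 h (log2 change 1.56, SE 0.06), while EIF4EBP2, a repressor of cap binding, fell to 6.23 and 7.50 CPM at 48 h, against 50.0 and 55.9 CPM at 24 h (log2 change -2.95, SE 0.12). Subunits of oxidative phosphorylation rose in 38 of 49 cases with no fall (median 0.46), and mitochondrial ribosomal proteins rose in 27 of 38 and fell in 2 (median 0.38). With the length and GC correction these were 29 higher and 6 lower, and 19 higher and 6 lower. Host genes of small nucleolar RNAs rose in 12 of 12 cases (median 1.36), among them SNHG7 with 75.2 and 67.4 CPM at 48 h and 19.0 and 19.1 CPM at 24 h (log2 change 1.90, SE 0.09) and SNHG8 (1.47, SE 0.09).

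**Figure D3:**
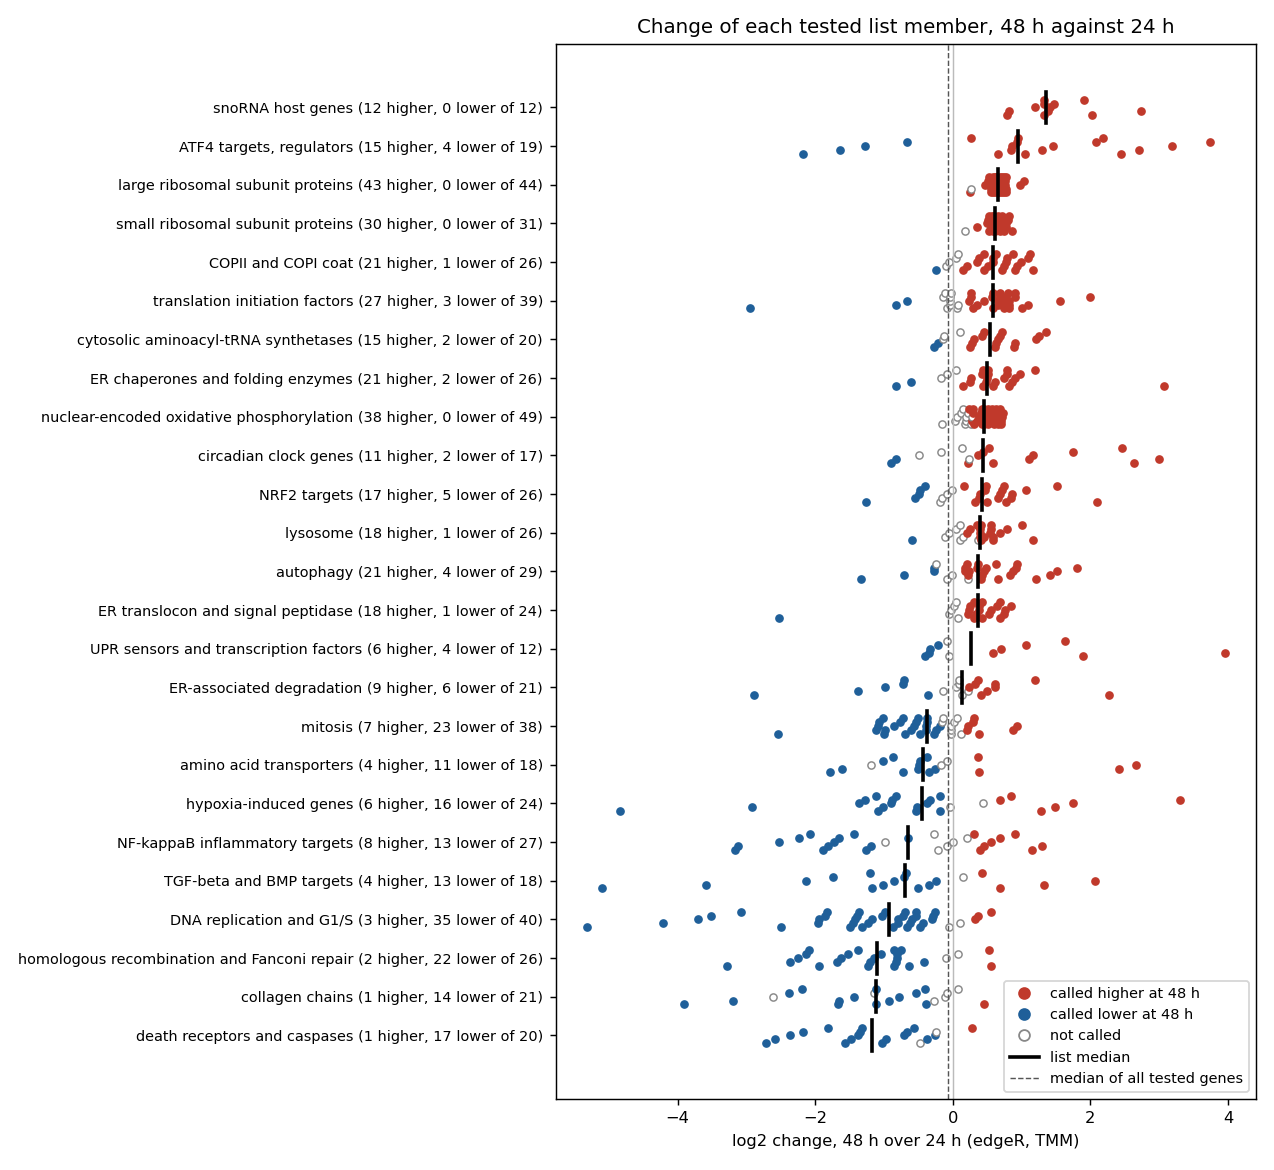
Log2 change of every tested member of 25 gene lists (horizontal axis, 48 h over 24 h); filled points were called, open points were not, black bars are list medians and the dashed line is the median of all tested genes. Ribosomal and snoRNA host genes lie right of 0. Replication, repair and collagen genes and the list of death receptors and caspases lie mostly left, and ATF4 targets and NF-kappaB targets spread to both sides.

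Replication genes fell. UHRF1, which reads hemimethylated DNA behind the fork, had 3.27 and 3.92 CPM at 48 h, against 46.7 and 46.7 CPM at 24 h, a 13.0-fold fall (log2 change -3.70, SE 0.11, adjusted p = 8.16e-10). CCNE2, a cyclin of the G1/S transition, had 0.953 and 1.24 CPM at 48 h and 19.7 and 20.9 CPM at 24 h (log2 change -4.21, SE 0.16). MCM6, a subunit of the replicative helicase, had 40.9 and 40.2 CPM at 48 h and 154 and 162 CPM at 24 h (log2 change -1.96, SE 0.07). Each of these groups was separate, with the 48 h libraries also below the untreated ones. Of 40 replication and G1/S genes, 35 fell and 3 rose, with a median log2 change of -0.93. FEN1, which trims Okazaki fragments, fell by 2.49 (SE 0.09) and RRM2, of ribonucleotide reductase, by 1.32 (SE 0.07) on the log2 scale. Falls were not alike in size, since E2F1 fell by 0.48 (SE 0.07), whereas the repressor E2F8 had 1.43 and 1.24 CPM at 48 h and 21.4 and 25.6 CPM at 24 h (log2 change -4.13, SE 0.19).

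The promoters of UHRF1 and MCM6 are shown for their E2F sites, and those of CDC20 and ESPL1, mitotic genes that went opposite ways, for the CHR. E2F sites were searched as TTTCCCGC, TTTGGCGC or TTTCGCGC, and the CHR as TTTGAA, each on both strands. The letters are as for HSPA5: RefSeq, GRCh38.p14, 250 bases before the start, matches in capitals. UHRF1 is at chr19:4909251-4909500 (plus strand), MCM6 at chr2:135876444-135876693 (minus strand), CDC20 at chr1:43358731-43358980 (plus strand) and ESPL1 at chr12:53268049-53268298 (plus strand). MCM6 has 4 matches in 2 overlapping pairs, and CDC20 has 2 matches, the nearer one 65 to 60 bases before the start.
UHRF1: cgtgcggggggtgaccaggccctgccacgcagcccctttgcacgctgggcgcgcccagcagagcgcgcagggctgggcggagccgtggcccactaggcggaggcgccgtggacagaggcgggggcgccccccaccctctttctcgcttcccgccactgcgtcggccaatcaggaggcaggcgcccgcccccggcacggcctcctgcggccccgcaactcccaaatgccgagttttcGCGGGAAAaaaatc
MCM6: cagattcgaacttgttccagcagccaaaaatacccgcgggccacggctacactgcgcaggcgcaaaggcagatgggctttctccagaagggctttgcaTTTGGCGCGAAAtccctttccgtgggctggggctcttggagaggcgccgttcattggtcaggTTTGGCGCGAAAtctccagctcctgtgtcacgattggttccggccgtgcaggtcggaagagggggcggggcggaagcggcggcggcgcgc
CDC20: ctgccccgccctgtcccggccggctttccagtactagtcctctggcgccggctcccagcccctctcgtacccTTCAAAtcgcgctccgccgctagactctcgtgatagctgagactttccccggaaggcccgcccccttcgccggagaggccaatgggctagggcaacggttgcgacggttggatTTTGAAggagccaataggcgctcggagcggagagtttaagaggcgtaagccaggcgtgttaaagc
ESPL1: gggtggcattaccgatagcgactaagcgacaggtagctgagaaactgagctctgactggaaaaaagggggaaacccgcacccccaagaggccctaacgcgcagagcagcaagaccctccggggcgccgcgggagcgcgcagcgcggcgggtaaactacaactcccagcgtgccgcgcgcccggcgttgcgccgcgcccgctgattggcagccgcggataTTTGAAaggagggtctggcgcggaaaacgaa
An E2F site was found in 15 of the 35 replication genes with a promoter in the table (42.9%) and in 2.32% of all promoters. It was found in 2 of 31 mitotic genes (6.45%) and in 1 of 22 homologous recombination and Fanconi genes (4.55%). The CHR was found in 17 of the 31 mitotic genes (54.8%) and in 13.3% of all promoters. It was found in 1 of the 35 replication genes (2.86%) and in 2 of the 22 recombination and Fanconi genes (9.09%). Replication genes with an E2F site had a median log2 change of -1.18, and those without it -0.89. Mitotic genes with and without the CHR had medians of -0.47 and -0.43. Whether these sites bear on the changes was not tested. The promoter of CDC20, a gene that rose, and that of ESPL1, a gene that fell, both hold the CHR.

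Mitotic genes changed less, and in both directions. Of 38 genes, 7 rose and 23 fell (median log2 change -0.37), and with library totals as the only scaling 2 rose and 30 fell. ESPL1, which encodes separase, had 7.22 and 7.36 CPM at 48 h and 44.7 and 39.9 CPM at 24 h (log2 change -2.54, SE 0.11). NDC80, of the outer kinetochore, fell by 1.00 (SE 0.08) and KIF23, a kinesin of the cleavage furrow, by 1.07 (SE 0.08) on the log2 scale. CDC20, the activator of the anaphase-promoting complex, had 164 and 155 CPM at 48 h, against 87.9 and 78.6 CPM at 24 h, and rose (log2 change 0.94, SE 0.07). CCNB1, the mitotic cyclin, was not called (165 and 156 CPM at 48 h, 171 and 156 CPM at 24 h), and the proliferation marker MKI67 fell by 0.39 (SE 0.12, adjusted p = 0.0124). MKI67 lost its call without 24 h replicate 2 (log2 change -0.31, adjusted p = 0.0983) and without 48 h replicate 1 (-0.25, adjusted p = 0.0541). Homologous recombination and Fanconi genes fell in 22 of 26 cases and rose in 2 (median -1.10), with BRCA1 at 22.7 and 21.8 CPM at 48 h and 71.6 and 72.0 CPM at 24 h (log2 change -1.69, SE 0.11) and its partner BARD1 at -2.37 (SE 0.14).

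These genes had been higher at 24 h than at 4 h, a step that shares the 24 h libraries with the comparison above. In the order control, 4 h, 24 h and 48 h, the median level of the mitosis list relative to control was -0.07 and 0.07, -0.98 and -0.94, 0.99 and 0.94, and 0.51 and 0.53 on the log2 scale. The replication list, in the same order, stood near 0, at -0.48 and -0.46, at 0.71 and 0.72, and at -0.17 and -0.17. At 48 h the median of the mitosis list was thus above that of untreated cells and the median of the replication list slightly below it, while single members such as ESPL1, with 7.22 and 7.36 CPM at 48 h, did not all follow their list. A direct contrast asked whether the step between 48 h and 24 h differed from that between 24 h and 4 h. It was called for 7855 genes (54.4%), with 3601 higher (24.9%) and 4254 lower (29.4%) in the later step. All 38 mitotic genes were called lower in it, as were 37 of 40 replication genes and 24 of 26 recombination and Fanconi genes, with medians of -2.44, -2.34 and -2.74.

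**Figure D4:**
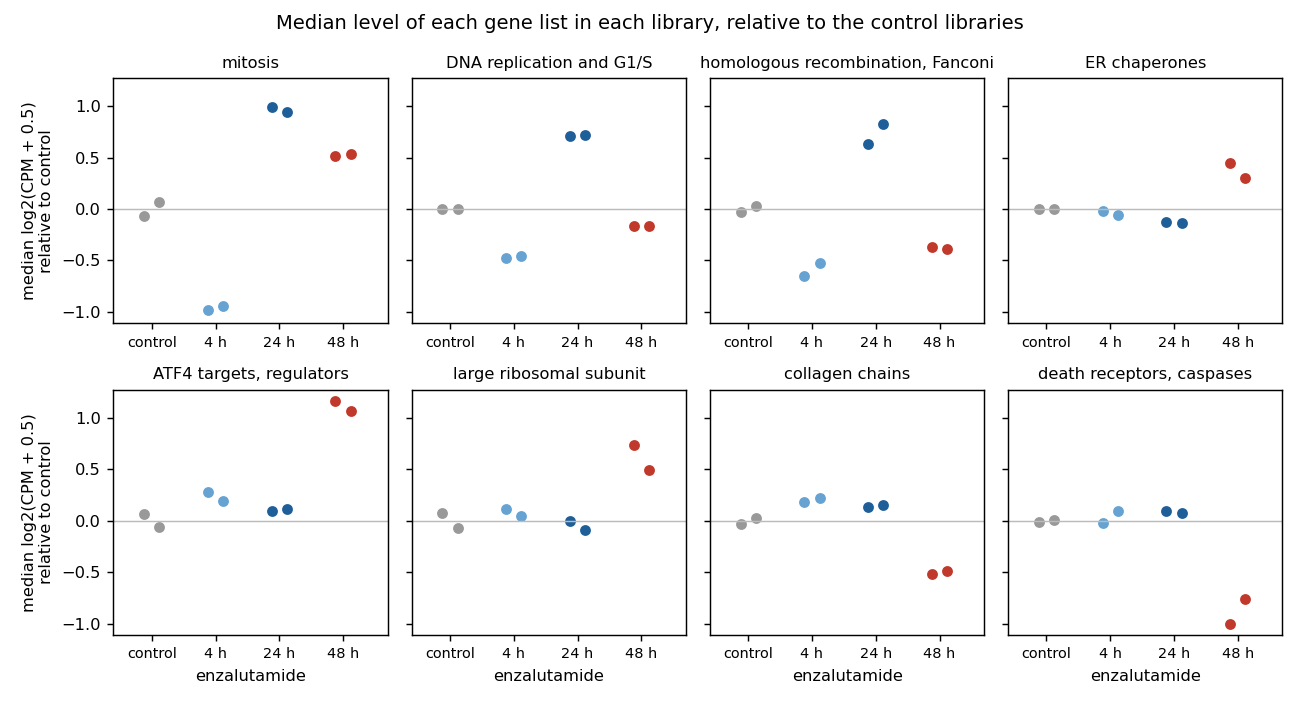
Median over the members of 8 gene lists of log2(CPM + 0.5) relative to the mean of the control libraries (vertical axes), with 1 point for each library of untreated cells and of cells after 4, 24 and 48 h of enzalutamide. Mitotic, replication and repair genes are low at 4 h, high at 24 h and lower again at 48 h. ER chaperones, ATF4 targets, large subunit ribosomal proteins, collagens and the list of death receptors and caspases depart from control mainly at 48 h.

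Between 24 h and 4 h, 41.5% of genes were called (21.2% higher and 20.3% lower at 24 h). Of the 3068 genes higher at 24 h than at 4 h, 1494 were lower at 48 h than at 24 h. Of the 2929 genes lower at 24 h than at 4 h, 1159 were higher at 48 h than at 24 h. Over all tested genes, 35.3% were lower and 31.5% higher at 48 h than at 24 h. Both steps use the 24 h libraries with opposite sign, so error in those libraries adds to both counts of turns. Genes called in the later step and not in the earlier one numbered 2643 higher and 2647 lower, and for 1818 and 1858 of these the difference between steps was itself called. A further 746 genes rose in both steps and 963 fell in both.

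The comparison of 4 h with untreated cells shares no library with that of 48 h with 24 h, and the calls of both could be set side by side. Between 4 h and control 28.6% of genes were called (15% higher and 13.6% lower at 4 h). Of 2163 genes higher at 4 h than in control, 691 were higher (31.9%) and 887 lower (41.0%) at 48 h than at 24 h, which were 15.2% of the later rises and 17.4% of the later falls. Of 1964 genes lower at 4 h than in control, 568 were higher (28.9%) and 919 lower (46.8%) at 48 h than at 24 h, which were 12.5% of the later rises and 18.0% of the later falls. The shares of all genes that rose and fell in the later step were 31.5% and 35.3%.

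Outside these groups, and among genes whose log2 CPM averaged 2 or more over the 24 h and 48 h libraries, the largest rises were in LTF, HES1, C1orf51, FBXO32 and ADM. LTF, which encodes the iron-binding protein lactoferrin, had 983 and 973 counts (33.5 and 33.5 CPM) at 48 h, against 29 and 12 counts (0.761 and 0.352 CPM) at 24 h, and rose 58.6-fold (log2 change 5.87, SE 0.20, adjusted p = 2.13e-09). Its 48 h level was also above that of untreated cells, 4.08 and 4.11 CPM. HES1, a repressor downstream of Notch, had 58.3 and 52.4 CPM at 48 h and 3.78 and 2.91 CPM at 24 h (log2 change 4.04, SE 0.17), while the receptor NOTCH3 fell by 1.41 (SE 0.16). FBXO32, a ubiquitin ligase of muscle wasting, had 483 and 487 CPM at 48 h and 44.6 and 50.1 CPM at 24 h (log2 change 3.36, SE 0.08). ADM, the peptide hormone adrenomedullin, had 821 and 698 CPM at 48 h and 79.2 and 75.3 CPM at 24 h (log2 change 3.30, SE 0.08), and C1orf51, also named CIART, a repressor of the circadian clock, had 108 and 103 CPM at 48 h and 8.82 and 8.49 CPM at 24 h (log2 change 3.60, SE 0.09). MYC, a growth-promoting transcription factor, rose to 466 and 464 CPM at 48 h, against 81.4 and 84.7 CPM at 24 h (log2 change 2.48, SE 0.07).

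Above the same mean level, the largest falls were led by PPP1R10, a nuclear targeting subunit of protein phosphatase 1. It had 19 and 17 counts (0.647 and 0.584 CPM) at 48 h, against 1906 and 1627 counts (50.0 and 47.8 CPM) at 24 h, a 79.0-fold fall (log2 change -6.30, SE 0.13, adjusted p = 1.53e-10). PRMT6, an arginine methyltransferase, had 0.647 and 1.10 CPM at 48 h and 23.8 and 21.5 CPM at 24 h (log2 change -4.69, SE 0.17). FAM111B had 1.23 and 1.03 CPM at 48 h and 28.8 and 31.1 CPM at 24 h (log2 change -4.72, SE 0.15). In both genes every 48 h library was far below every 24 h library. The other 5 of the 8 largest falls above that level were in CCNE2 and E2F8, given above, in LMNB1, which encodes lamin B1 of the nuclear envelope (2.21 and 3.23 CPM at 48 h, 46.8 and 46.4 CPM at 24 h), in APLN, the apelin peptide (1.91 and 2.20 CPM at 48 h, 37.7 and 38.0 CPM at 24 h), and in FAM212B (2.65 and 2.27 CPM at 48 h, 43.7 and 49.3 CPM at 24 h).

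Genes of death receptors, caspases and their regulators mostly fell. In this list of 20, 17 fell and 1 rose (median log2 change -1.18). The list also holds inhibitors of cell death, among them BIRC3, which had 15.9 and 17.4 CPM at 48 h and 54.4 and 63.4 CPM at 24 h (log2 change -1.82, SE 0.10). FADD, the adaptor of death receptors, had 6.53 and 7.15 CPM at 48 h and 42.5 and 39.5 CPM at 24 h (log2 change -2.58, SE 0.09), and CASP8, the caspase it recruits, had 5.0 and 5.67 CPM at 48 h and 28.2 and 26.8 CPM at 24 h (log2 change -2.37, SE 0.12). TNFRSF10B, a death receptor that CHOP is known to induce, fell by 0.66 (SE 0.08) on the log2 scale. BBC3, which encodes the killer protein PUMA, rose to 10.4 and 8.15 CPM at 48 h, against 2.63 and 4.17 CPM at 24 h (log2 change 1.45, SE 0.23, adjusted p = 0.000156). Of 9 pro-apoptotic and 5 anti-apoptotic BCL2 family genes, 5 and 3 rose and 1 of each fell, but with library totals alone rises and falls were equal in number, at 2 and 2 and at 1 and 1. PMAIP1 and BCL2 were not called, and MCL1 fell by 0.28 (SE 0.09, adjusted p = 0.0136). MCL1 lost its call without 48 h replicate 1 (log2 change -0.13, adjusted p = 0.0522) and without either 24 h library (adjusted p = 0.0595 and 0.0618). Targets of p53 split into 13 higher and 6 lower of 27 (10 lower with library totals alone). GDF15, a stress hormone, had 1076 and 895 CPM at 48 h and 197 and 237 CPM at 24 h (log2 change 2.18, SE 0.11), GADD45A rose by 1.95 (SE 0.08), and CDKN1A, the inhibitor p21, rose to 636 and 575 CPM at 48 h, against 342 and 348 CPM at 24 h (log2 change 0.81, SE 0.07).

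Collagen genes and several signalling groups fell more often than they rose, and other matrix groups divided. Of 21 collagen chains, 14 fell and 1 rose (median -1.11). COL1A1, the alpha-1 chain of type I collagen, had 7.76 and 11.2 CPM at 48 h and 140 and 145 CPM at 24 h (log2 change -3.91, SE 0.13), and COL1A2, its partner chain, 35.9 and 50.2 CPM at 48 h and 398 and 384 CPM at 24 h (log2 change -3.19, SE 0.12). FN1, which encodes fibronectin, rose instead (6218 and 6394 CPM at 48 h, 4090 and 4170 CPM at 24 h). Of 24 other matrix proteins, 7 rose and 5 fell (median -0.11). Of 25 matrix proteases and their inhibitors, 9 rose and 7 fell, and MMP14, a membrane-bound protease, had 1929 and 1718 CPM at 48 h and 658 and 622 CPM at 24 h (log2 change 1.51, SE 0.07). Of 24 integrins and laminins, 13 fell and 4 rose, with ITGA5, the fibronectin receptor chain, at -1.24 (SE 0.06). TGF-beta and BMP targets fell in 13 of 18 cases and rose in 4 (median -0.70), among them ID1, an inhibitor of differentiation (13.2 and 11.5 CPM at 48 h, 150 and 146 CPM at 24 h), and the inhibitory SMAD6, which was down to 7 and 10 counts at 48 h, against 377 and 349 counts at 24 h. YAP and TEAD targets fell in 11 of 16 cases and rose in 3 (median -0.70), including the coactivator WWTR1 (log2 change -1.74, SE 0.10). Of 24 immediate early genes of the AP-1 and EGR families and the like, 11 rose and 9 fell. Of 12 receptor tyrosine kinases of glioblastoma, 10 fell and 1 rose, and EPHA2 had 21.2 and 19.6 CPM at 48 h and 96.4 and 104 CPM at 24 h.

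Inflammatory and hypoxia genes fell more often than they rose, and glycolysis genes divided. Over all tested genes falls also outnumbered rises, at 35.3% and 31.5%. Among 27 NF-kappaB targets, 13 fell and 8 rose (median -0.65), and the cytokine LIF had 134 and 122 CPM at 48 h and 764 and 700 CPM at 24 h (log2 change -2.52, SE 0.08). Interferon-induced genes fell in 15 of 30 cases and rose in 6 (median -0.48). Among the risers was IRF1, a transcription factor of the interferon response, with 153 and 140 CPM at 48 h and 38.9 and 42.4 CPM at 24 h (log2 change 1.84, SE 0.09). Of 24 hypoxia-induced genes, 16 fell and 6 rose (median -0.45). ANGPTL4, a secreted inhibitor of lipoprotein lipase, had 0.306 and 0.481 CPM at 48 h and 10.5 and 12.1 CPM at 24 h (log2 change -4.83, SE 0.18), whereas BHLHE40, a transcriptional repressor, had 687 and 582 CPM at 48 h and 189 and 188 CPM at 24 h (log2 change 1.75, SE 0.08). Glycolysis genes split into 9 higher and 11 lower of 24. SLC16A3, which exports lactate, had 28.2 and 26.0 CPM at 48 h and 188 and 187 CPM at 24 h (log2 change -2.79, SE 0.07). HK2, which traps glucose as its phosphate, rose to 1009 and 1055 CPM at 48 h, against 281 and 300 CPM at 24 h (log2 change 1.83, SE 0.07).

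Genes of androgen signalling, the drug's target pathway, moved in both directions. FKBP5, a co-chaperone induced by steroid hormones, had 8.24 and 10.0 CPM at 48 h and 13.5 and 14.7 CPM at 24 h (log2 change -0.63, SE 0.14). Of 23 androgen-responsive genes tested, 7 rose and 10 fell, with a median of -0.04 (-0.26 with library totals as the only scaling, where the median of all genes was -0.284).

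Clock, recycling and antioxidant genes rose more often than they fell. Of 17 circadian genes, 11 rose and 2 fell (median log2 change 0.44). PER1, a negative arm of the clock, had 155 and 163 CPM at 48 h and 21.5 and 18.2 CPM at 24 h (log2 change 3.00, SE 0.09), NFIL3, a repressor of clock output, 127 and 122 CPM at 48 h and 19.6 and 20.4 CPM at 24 h (log2 change 2.63, SE 0.07), and the nuclear receptor NR1D1 386 and 340 CPM at 48 h and 64.4 and 67.5 CPM at 24 h (log2 change 2.46, SE 0.08). Of 29 autophagy genes, 21 rose and 4 fell (median 0.36), with SQSTM1, the cargo receptor p62, at 4330 and 4257 CPM at 48 h and 1487 and 1532 CPM at 24 h (log2 change 1.51, SE 0.05). Of 26 lysosome genes, 18 rose and 1 fell (median 0.40). Of 26 NRF2 targets, 17 rose and 5 fell (median 0.43), and OSGIN1 was among the risers (122 and 118 CPM at 48 h, 28.3 and 27.6 CPM at 24 h). HMOX1, haem oxygenase, was 627 and 635 CPM at 48 h and 489 and 416 CPM at 24 h (log2 change 0.48, SE 0.08), far under the 3194 and 2914 CPM of the 4 h libraries. Scaled by library totals alone, the autophagy, lysosome and NRF2 counts were 12 higher and 6 lower, 14 and 4, and 14 and 8.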

How the data were processed

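Counts from 8 U87MG libraries were used, 2 per group, grouped and numbered by the labels. The authors deposited raw counts by gene symbol, as the values show: whole numbers whose totals differ between libraries. The submitters' processing notes name Bowtie and the builds hg19 and GRCh37. Not given in the sources used here: Bowtie's version, the counter, the annotation, strand use. Overlapping genes and those with near-identical or antisense partners may therefore share reads. Of the names, 28 had been turned into dates, and they held 0.191 to 0.224% of counts. They stayed in the totals, the filter and the fit, and were left out only when genes were named. Every file listed 23368 names.

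The fit used R 4.3.3 and edgeR 4.0.16 (filterByExpr, 1 coefficient per group, all 8 libraries, quasi-likelihood F test, 4 residual degrees of freedom). The 48 h libraries had TMM factors of 0.870 and 0.899, the 24 h libraries 1.025 and 1.029. The fit was also run on simulated data. For 48 h against 24 h it recovered 75.5% of 2-fold and 66% of 1.5-fold changes. For the difference between steps it recovered 61% and 15%. Unchanged genes called numbered 7 and 12. Few genes changed in the simulation, unlike in these data, so it cannot check the scaling under changes this wide. Adjusted p-values in the report are edgeR's, with Benjamini-Hochberg adjustment over 14448 genes, and a standard error is the size of the log2 change over the square root of F. The difference between steps is a contrast of 48 h minus 24 h against 24 h minus 4 h, which span 24 and 20 h.

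The comparison and the 66 gene lists were chosen with earlier results of these data known, so list counts are descriptions. The rule for named genes took the 8 largest rises and 8 largest falls (called, mean log2 CPM of 2 or more, groups not overlapping), up to 4 called members of each list by smallest p, the 5 largest differences between steps each way, and a fixed panel. Of the 261 genes it selects, some are given. The rule also took called cell type markers, such as CD68 and GJA1. Others in the text, such as CNP, which was not called, were outside it.

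Alternatives were DESeq2 1.42.0, limma-voom (limma 3.58.1), DESeq2 size factors, library totals, no filter (19903 genes), at least 5 CPM (11076 genes), the replicate number as a block, the 24 h and 48 h libraries alone, a null fold change of 1.5, and each library left out. A length and GC correction was chosen after seeing the data. Length and GC content came from GENCODE v29 on GRCh38, matched by symbol for 13754 genes (95.2%). Promoters came from RefSeq.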

Additional observations from a re-analysis of the deposited data

Results flagged for a closer look

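The change between 24 h and 48 h differed from the change between 4 h and 24 h for many genes, by edgeR's test of the difference itself. It was higher in the later step for 3601 genes and lower for 4254. Both steps use the 24 h libraries, as the end of the earlier step and the start of the later step, so an error in those libraries enters both with opposite sign.

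The differences below are the largest among called genes whose log2 CPM averaged 2 or more over the 24 h and 48 h libraries. On the log2 scale the positive ones were 8.56 for LTF (lactoferrin), 4.64 for HES1 (a Notch-responsive repressor) and 4.36 for ADM (adrenomedullin). Next were 4.31 for ATF3 (a stress-induced factor) and 4.09 for MSC (a basic helix-loop-helix repressor). The value for LTF rests on the few counts it had at 24 h, given above. LTF fell between 4 h and 24 h (log2 change -2.68) and rose between 24 h and 48 h (5.87). MSC fell by 1.14 in the earlier step and rose by 2.95 in the later one.

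The largest negative differences were -7.30 for E2F8 (a repressor of the E2F family), -5.93 for FAM111B, -5.86 for ESCO2 (a cohesin acetyltransferase), -5.83 for LMNB1 (lamin B1) and -5.72 for SPC25 (a kinetochore protein). Each of these rose between 4 h and 24 h, E2F8 by 3.17 and SPC25 by 2.32, and fell between 24 h and 48 h, with log2 changes of -4.13 for E2F8, -3.30 for ESCO2 and -3.40 for SPC25.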

How the results depend on the processing

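The counts of genes higher and lower at 48 h than at 24 h stayed within 1.5 times their main values (4548 and 5104) under every alternative run except a fold change of 1.5 as the null, which gave 1342 higher and 2575 lower. Without 1 library each they ranged from 3873 to 4721 higher and from 4403 to 5095 lower, and the counts for the difference between steps from 2463 to 4116 higher and from 3142 to 4706 lower. Deviations of same-numbered libraries correlated at -0.00488 to 0.135. No strong effect shared by replicate number was thus seen, but with 2 libraries a group this cannot settle whether the libraries were paired. With the replicate number as a block the counts were 4661 higher and 5229 lower, and 3759 and 4418 for the difference between steps. Of 4949 values of named genes under 19 alternatives, 4875 kept direction and call, 38 lost the call with the 1.5-fold null, and 12 genes lost it under some other alternative: BAX, BCL2L1, BCL2L2, BMF, CLDN4, EIF2AK3, MAP2, MCL1, MKI67, RBFOX3, SLC1A2 and SLC7A11. Among genes not called, CCNB1 (-0.03) became 0.01 with DESeq2 and with DESeq2 size factors, and lay between -0.10 and 0.03 with 1 library left out, above 0 without 24 h replicate 1 (0.03) and without 48 h replicate 2 (0.01). PMAIP1 (0.08) became -0.14 with library totals and -0.04 with length and GC content corrected, with or without the block, and ATF6 (-0.06) became 0.12 with that correction in both forms; the cause was not tested. With 2 libraries a group, the spread is known only through the 4 residual degrees of freedom of all groups.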

Other observations

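Some families moved in both directions between 24 h and 48 h, and, scaled by library totals alone, the median of the splicing list was -0.18 and that of the heat shock list -0.11, against 0.04 and 0.10. Of 27 splicing factors, 9 rose and 12 fell, with SRSF1, a regulator of exon inclusion, at 34.5 and 43.7 CPM at 48 h and 171 and 166 CPM at 24 h (log2 change -2.11, SE 0.10) and HNRNPM at 52.0 and 51.0 CPM at 48 h and 184 and 189 CPM at 24 h (-1.86, SE 0.06), while PTBP1 rose by 1.13 (SE 0.07). Cytosolic heat shock genes split into 9 higher and 7 lower of 19. HSP90AA1, the inducible cytosolic HSP90, fell to 1126 and 1036 CPM at 48 h, against 1970 and 1935 CPM at 24 h (log2 change -0.85, SE 0.07). Genes that damp MAPK signalling gave 8 higher and 9 lower of 19: DUSP10, a phosphatase of stress kinases, had 183 and 176 CPM at 48 h and 30.1 and 28.1 CPM at 24 h (2.62, SE 0.08), and DUSP6, a phosphatase of ERK, had 25.8 and 34.8 CPM at 48 h and 155 and 161 CPM at 24 h (-2.38, SE 0.12).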
